A study of Mus musculus with 24 samples.

Results

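The insulin-like growth factor (IGF) genes studied here were the 10 genes Igf1, Igf2, Igf1r, Igf2r, Igfbp2, Igfbp3, Igfbp4, Igfbp5, Igfbp6 and Igfbp7, chosen by name and matched to the Ensembl identifiers of the deposited tables through GENCODE symbols. All 10 were found among the 48795 identifiers of each table, and all 10 passed the filter on low values in both. The RNA came from sorted lung cells of Balb/c mice, all female and 8 weeks of age. In the sham group the mice were sham-irradiated and given an IgG control antibody. In the irradiated group the lungs received 13 Gy and the mice were given the IgG control antibody. In the depleted group the lungs received 13 Gy and the mice were given an anti-Ly6G neutrophil depletion antibody every day. Lungs were taken 7 days after irradiation, and every group had received an antibody. Cells negative for CD45, CD31 and Ter119 were sorted into an EpCAM+ (epithelial) and an EpCAM- (mesenchymal) fraction, with 4 libraries in each of the 6 groups. CD31 is named in the cell type entries, while the sorting protocol lists CD45 in its place. The study names 4 mice per treatment, but no label ties an epithelial library to a mesenchymal one.

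The IGF pathway works through 2 ligands, Igf1 and Igf2, that circulate or act locally. Igf1r is the tyrosine kinase receptor that carries the growth and survival signal, and Igf2r takes up Igf2 and delivers it to lysosomes. The binding proteins hold the ligands outside the cell, extend their life and keep them from the receptor until proteases such as pregnancy-associated plasma protein A (Pappa) cut them. In the lung, fibroblasts are a source of Igf1 and of several binding proteins. Igfbp7 binds the ligands weakly and is often treated as a related protein of the extracellular matrix.

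The fractions carried the markers of their labels. Epcam averaged between 1051 and 1151 normalised counts in the epithelial groups and between 8.55 and 20.2 in the mesenchymal groups. Sftpc, the surfactant gene of alveolar type 2 cells, averaged at least 340147 in the epithelial groups. Col1a1, a collagen gene of fibroblasts, averaged between 34826 and 38157 in the mesenchymal groups. A normalised count is the authors' gene count divided by 1 size factor per library, and each fraction has its own table and scale, so no level was tested between fractions. Libraries held 8159062 to 13373329 reads in the epithelial table and 7366672 to 11408083 in the mesenchymal table. The limit that 0 reads allow, 3 reads, equals 2.36 to 3.81 on the scale of epithelial libraries and 2.48 to 3.66 on that of mesenchymal libraries, for counting error only. Differences are given as log2 of (normalised count + 1) ± standard error, tested with limma across all filtered genes of a table (16626 epithelial and 16624 mesenchymal). Calls required an adjusted p (Benjamini-Hochberg) below 0.05. Errors of means are SDs over n = 4 libraries. The p-values measure the spread between these libraries.

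Positions are given on GRCm38 with GENCODE M21. Igfbp4 (ENSMUSG00000017493) lies on the plus strand at chr11:99041244-99054392, and Igfbp3 (ENSMUSG00000020427) on the minus strand of the same chromosome at chr11:7206086-7213923. Igfbp7 (ENSMUSG00000036256) lies on the minus strand at chr5:77349240-77408041. Of the others, Igf1 lies at chr10:87858265-87937042 (plus), Igf2 at chr7:142650766-142666816 (minus), Igf1r at chr7:67952827-68233668 (plus), Igf2r at chr17:12682406-12769664 (minus) and Igfbp6 at chr15:102144362-102149511 (plus). Igfbp2 (chr1:72824503-72852474, plus) and Igfbp5 (chr1:72857932-72874884, minus) are neighbours that end toward each other with 5457 bases between them. The 250 bases before the RefSeq start site (GRCm38.p6) are shown for Igfbp4, Igfbp3 and Igfbp7 because they are the only members that passed the test in any comparison. Igfbp4 covers chr11:99040994-99041243 on the plus strand, Igfbp3 chr11:7213924-7214173 on the minus strand and Igfbp7 chr5:77408046-77408295 on the minus strand. Each reads 5′ to 3′ toward the gene, and capitals mark the motifs found.
Igfbp4: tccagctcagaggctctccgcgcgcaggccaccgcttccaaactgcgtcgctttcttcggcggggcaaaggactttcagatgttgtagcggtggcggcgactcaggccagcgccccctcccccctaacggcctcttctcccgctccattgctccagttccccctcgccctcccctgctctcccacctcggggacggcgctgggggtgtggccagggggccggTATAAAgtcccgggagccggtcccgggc
Igfbp3: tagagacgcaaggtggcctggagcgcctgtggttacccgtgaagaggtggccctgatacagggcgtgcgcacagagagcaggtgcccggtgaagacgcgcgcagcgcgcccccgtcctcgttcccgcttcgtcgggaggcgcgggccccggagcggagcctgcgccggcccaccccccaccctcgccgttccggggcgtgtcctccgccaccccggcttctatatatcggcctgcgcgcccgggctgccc
Igfbp7: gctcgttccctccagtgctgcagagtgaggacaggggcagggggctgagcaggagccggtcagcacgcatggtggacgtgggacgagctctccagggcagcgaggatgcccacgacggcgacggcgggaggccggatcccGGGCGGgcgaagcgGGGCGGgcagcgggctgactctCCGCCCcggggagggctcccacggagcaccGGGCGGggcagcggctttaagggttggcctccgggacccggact
The windows were searched on both strands for 8 motifs: the TATA box TATAAA, the GC box GGGCGG, the CCAAT box CCAAT, the E-box CACGTG, the AP-1 site TGANTCA, the STAT site TTCNNNGAA, the forkhead site GTAAACA and the p53 decamer. The Igfbp4 window held a TATA box 28 to 23 bases before the start, a motif found in 12.4% of 32851 such mouse promoter windows. The Igfbp7 window held 4 GC boxes, a motif found in 32.7% of windows. None of the 8 motifs had a match in the Igfbp3 window. The GC content was 69.2% for Igfbp4, 73.2% for Igfbp3 and 74.0% for Igfbp7. A match in these letters is a description and not a site shown to be used.

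The binding proteins differed widely in level. Per kilobase of exon, Igfbp7 had the highest mean of the 10 genes in each of the 6 groups, with 1154 ± 133 in sham epithelium and 4048 ± 199.7 in sham mesenchyme, where it ranked 47 of 16581 genes. In sham mesenchyme Igfbp3 (1547 ± 40.8), Igfbp6 (1402 ± 181) and Igfbp5 (1334 ± 262) followed per kilobase, and the libraries of neighbours in that order overlapped. Igfbp4 came next at 1016 ± 78.8 without overlapping Igfbp5. Igf2r (326 ± 20.0), Igf1r (141 ± 5.41), Igf1 (133 ± 10.5), Igf2 (38.8 ± 8.07) and Igfbp2 (5.18 ± 2.89) were lower per kilobase, and of these only Igf1r and Igf1 overlapped. In sham epithelium the order per kilobase was Igfbp7, Igfbp6 (496 ± 32.4), Igf2r (290 ± 19.3), Igfbp5 (214 ± 55.4), Igfbp3 (86.7 ± 4.34), Igfbp2 (66.2 ± 36.7), Igf1r (45.9 ± 3.78), Igfbp4 (44.8 ± 3.08), Igf2 (11.1 ± 1.71) and Igf1 (9.39 ± 2.68). There the libraries of Igf2r and Igfbp5 overlapped, as did those of Igfbp3 and Igfbp2, Igfbp2 and Igf1r, Igf1r and Igfbp4, and Igf2 and Igf1. The plot of all members by library gives the normalised counts, not divided by length, on a log axis.

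**Figure D1:**
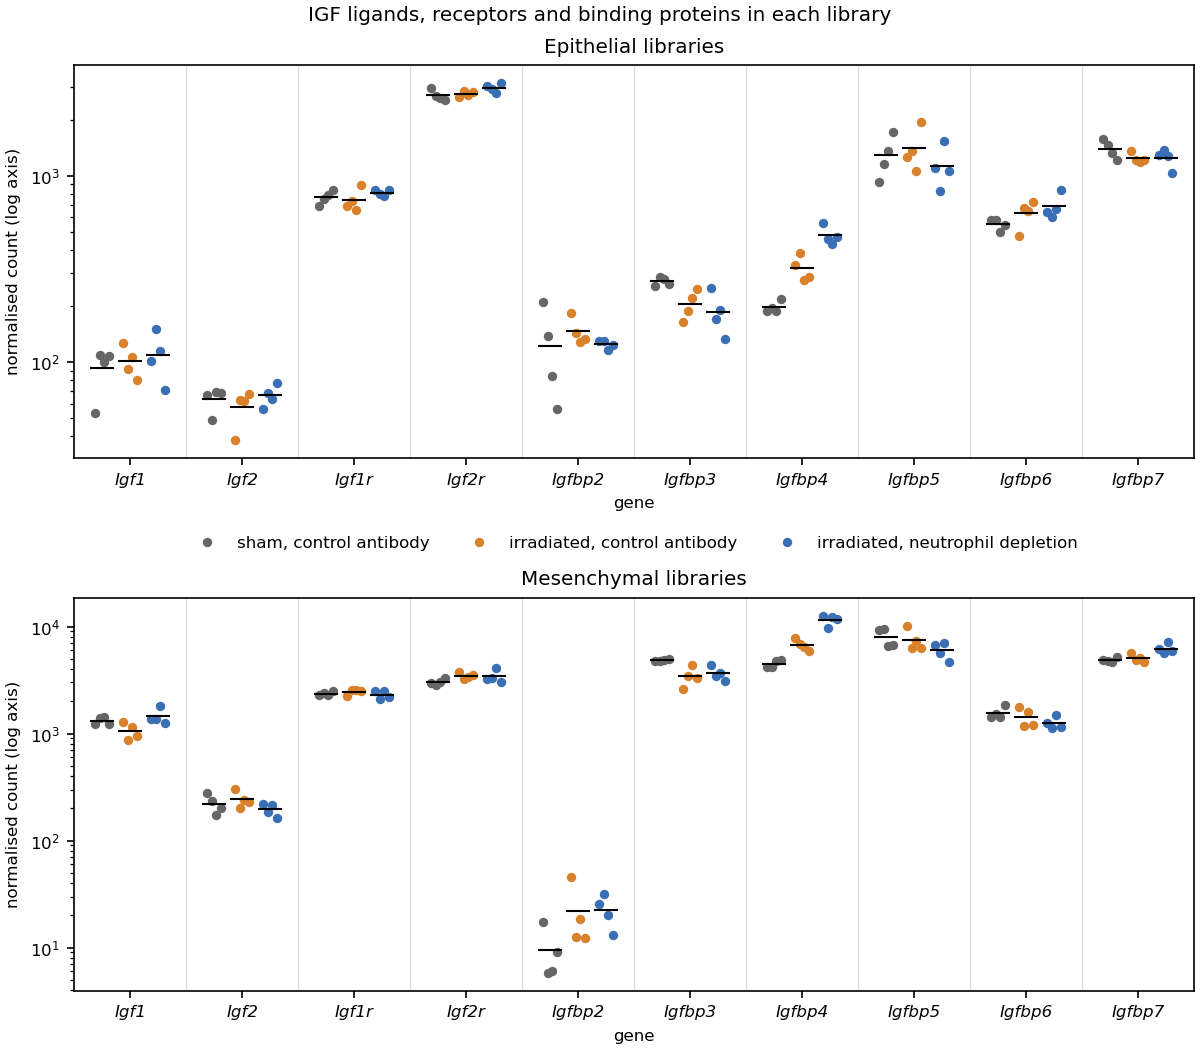
Normalised counts (log axis) of the 10 genes in each of the 12 epithelial libraries (top) and 12 mesenchymal libraries (bottom). Points are libraries coloured by group and black lines are group means. Igfbp4 rises in steps from sham to irradiated to depleted in both panels, from a mean of 198 to 321 to 479 in epithelium and from 4485 to 6777 to 11556 in mesenchyme.

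Irradiation was followed by higher Igfbp4 in both fractions and by lower Igfbp3 in mesenchyme. In epithelium 1 of the 10 genes was called against sham (Igfbp4), where 3.14% of all tested genes were called. In mesenchyme 2 of 10 were called (Igfbp4 higher, Igfbp3 lower), against 3.80% of all tested genes. The median difference over the 10 genes was 0.08 in epithelium and 0.05 in mesenchyme, and over all tested genes it was -0.01 in both. The ligands and receptors passed no test in either fraction.

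Adding neutrophil depletion to irradiation was followed by a further rise of Igfbp4 in both fractions. Against irradiated mice 1 of the 10 genes was called in each fraction, Igfbp4 both times, where 0.475% of epithelial and 2.69% of mesenchymal genes were called. Against sham, depleted epithelium had 2 of 10 genes called (Igfbp4 higher, Igfbp3 lower) and 11.3% of all genes. Depleted mesenchyme had 3 of 10 called against sham (Igfbp4 and Igfbp7 higher, Igfbp3 lower) and 15.2% of all genes. These 3 comparisons of a fraction share libraries, so their calls are not independent of each other. The plot of differences gives each of the 10 genes with its interval.

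**Figure D2:**
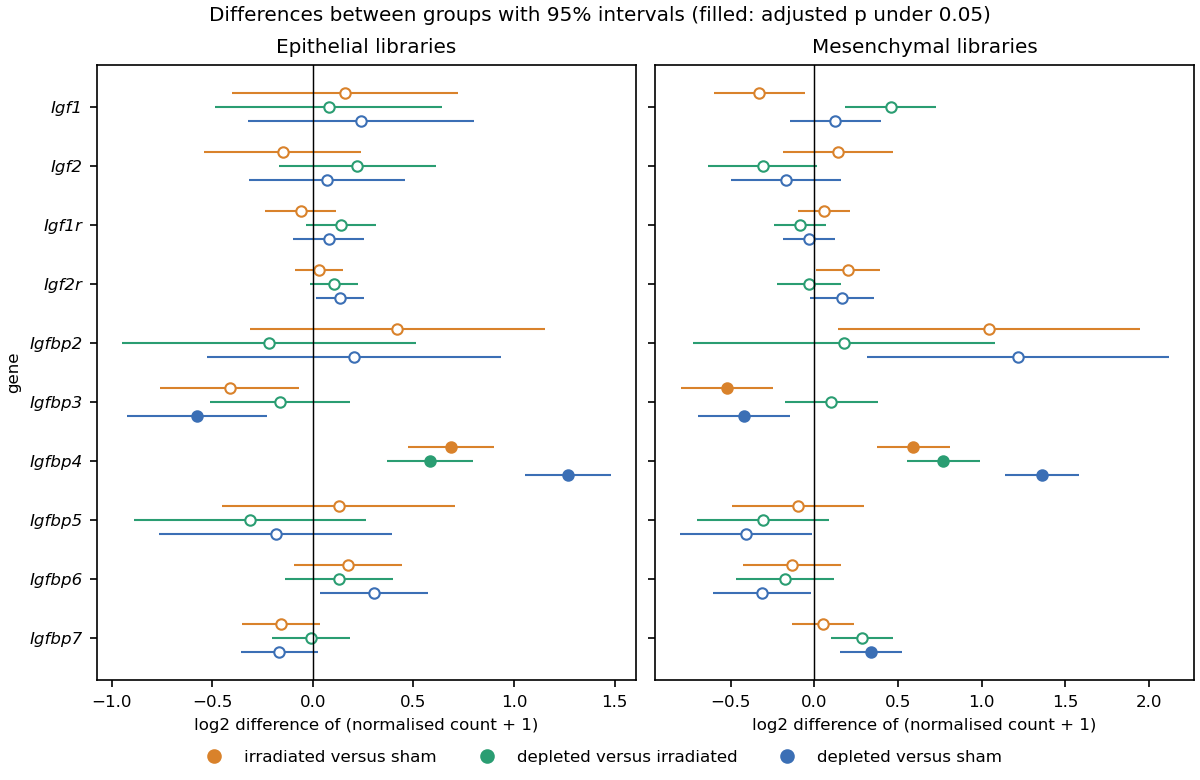
Log2 differences of (normalised count + 1) with 95% intervals for the 10 genes in epithelium (left) and mesenchyme (right), in the 3 comparisons of each fraction. Filled points passed an adjusted p under 0.05. All 3 Igfbp4 intervals lie above 0 in both fractions, and the Igfbp3 intervals against sham lie below 0.

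Igfbp4, a binding protein that mostly restrains IGF signalling until Pappa cuts it, was the member with the clearest order of groups. In epithelium its normalised counts were 189, 195, 188 and 218 in sham, 331, 386, 278 and 288 in irradiated, and 557, 458, 433 and 468 in depleted libraries. In mesenchyme they were 4224, 4149.7, 4737 and 4830.4 in sham, 7868.5, 6928, 6414 and 5896 in irradiated, and 12583, 9694, 12196 and 11749.9 in depleted libraries. In both fractions every irradiated library was above every sham library and every depleted library above every irradiated one. That order without overlap was seen for 0.247% of tested genes in epithelium, for 0.710% in mesenchyme and for 14 of the 15092 genes tested in both tables (0.0928%). Other genes among those 14, named after their values were seen, were the acute-phase genes Saa3, Lcn2, Serpina3n and Cfb and the protease inhibitor Timp1. The remaining ones were Ctsb, Ifitm3, Plac8, Mt2, Ildr2, Gda, Serpina3m and Serpina3i. Lcn2, Serpina3n, Cfb, Ctsb, Gda and Serpina3i were called neither in irradiated against sham nor in depleted against irradiated epithelium.

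Igfbp4 rose in irradiated against sham by 0.69 ± 0.102 in epithelium (1.61-fold, limma adjusted p = 0.000788) and by 0.59 ± 0.103 in mesenchyme (1.51-fold, adjusted p = 0.00525). Depletion added 0.58 ± 0.102 in epithelium (1.498-fold, adjusted p = 0.0119) and 0.77 ± 0.103 in mesenchyme (1.71-fold, adjusted p = 0.000863). Depleted exceeded sham by 1.27 in epithelium (2.41-fold, adjusted p = 3.93e-07) and by 1.36 in mesenchyme (2.57-fold, adjusted p = 7.40e-07). Of 23 alternative settings, 4 ended the call of depleted against irradiated epithelium: leaving out irradiated replicate 3, irradiated replicate 4 or depleted replicate 1, and fitting the 2 groups alone, with adjusted p up to 0.0567. The other 5 of these Igfbp4 calls held in all 23.

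A pan-mesenchymal marker list moved with Igfbp4 in the epithelial fraction, while lists of fibroblast types did not move as one. In bulk samples a change in the number of cells of a type and a change in RNA per cell cannot be told apart. The summed normalised count of 7 pan-mesenchymal markers (Col1a1, Col1a2, Col3a1, Pdgfra, Pdgfrb, Vim and Lum) was between 6093 and 6809 in sham, between 7507.5 and 8345 in irradiated and between 8877 and 10417 in depleted epithelial libraries. Of these 7 markers 3 were called higher in irradiated and 4 in depleted epithelium against sham. Over all tested genes 3.14% and 11.3% were called in these comparisons, in either direction, beside this and the other epithelial lists. Of 8 alveolar fibroblast markers 2 were called lower in depleted against sham epithelium, with mean sums of 36316 in sham, 33787 in irradiated and 31942.5 in depleted libraries. Of 9 adventitial fibroblast markers 4 were called higher and 2 lower there. Igfbp4 per 1000 pan-mesenchymal counts was 31.0 ± 3.23 in sham, 40.9 ± 5.00 in irradiated and 49.8 ± 4.74 in depleted epithelium. The sham values (28.7 to 35.7) lay below the irradiated ones (36.0 to 46.3), which overlapped the depleted ones (42.8 to 53.4). Of 8 mesothelial markers 5 were called higher in depleted against sham epithelium, with median sums of 1379 in sham, 1615 in irradiated and 2484 in depleted libraries. That list holds Krt19, which is also a pan-epithelial marker, so its sums may include RNA of epithelial cells. Of 10 endothelial markers 5 were called higher in irradiated against sham epithelium. Igfbp4 per 1000 endothelial counts was 183 ± 42.8 in sham, 155 ± 27.4 in irradiated and 279 ± 48.3 in depleted epithelium, so on that scale irradiated was not above sham. Per 1000 mesothelial counts it was 146 ± 13.1, 198 ± 52.5 and 217 ± 84.3, with overlapping groups. The part of these cells in the epithelial Igfbp4 values was not tested.

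In the mesenchymal fraction the same 7 markers did not follow the order of Igfbp4. Their sums were between 142036 and 186197 in sham, between 125632 and 208633 in irradiated and between 151969.9 and 216932 in depleted libraries. Igfbp4 per 1000 of these counts in mesenchyme was 28.2 ± 1.61 in sham (lowest 25.9, highest 29.7), 44.0 ± 4.86 in irradiated (37.7 and 48.6) and 63.4 ± 10.15 in depleted libraries (55.5 and 77.3), with no overlap between groups. On the scale of rarer cells the mean was lower in irradiated than in sham mesenchyme, but sham and irradiated libraries overlapped on each such scale. Igfbp4 per 1000 endothelial counts averaged 2585 in sham, 1911 in irradiated and 4472 in depleted mesenchyme. Per 1000 mesothelial counts it averaged 7713, 5673 and 13749, and per 1000 pan-epithelial counts 27166, 22129 and 35709. Of 12 macrophage markers 11 were tested and 4 were called higher in irradiated and 7 in depleted mesenchyme against sham, and of 10 endothelial markers 0 and 1 were. Over all tested genes 3.80% and 15.2% were called in these comparisons, in either direction, and the endothelial counts did not exceed those shares. Of 5 lymphatic endothelial markers 2 were called higher in irradiated and 3 in depleted mesenchyme against sham. Their sums were between 324 and 452 in sham, between 638 and 788 in irradiated and between 793 and 1266 in depleted mesenchyme, the same order without overlap as Igfbp4. That list holds Pdpn, which is also an alveolar type 1 marker, and the part of Pdpn in these sums was not tested. The macrophage sums were between 184 and 507 in sham, between 495 and 1703 in irradiated and between 654 and 1267 in depleted mesenchyme. Of 8 tested neutrophil markers, a list that holds Lcn2, 4 were called higher in irradiated and 5 in depleted against sham mesenchyme. In epithelium 4 and 6 were, beside 3.14% and 11.3% of all genes called. The part of these cells in the mesenchymal Igfbp4 values was not tested. The plot of Igfbp4 against the marker sums shows both fractions.

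**Figure D3:**
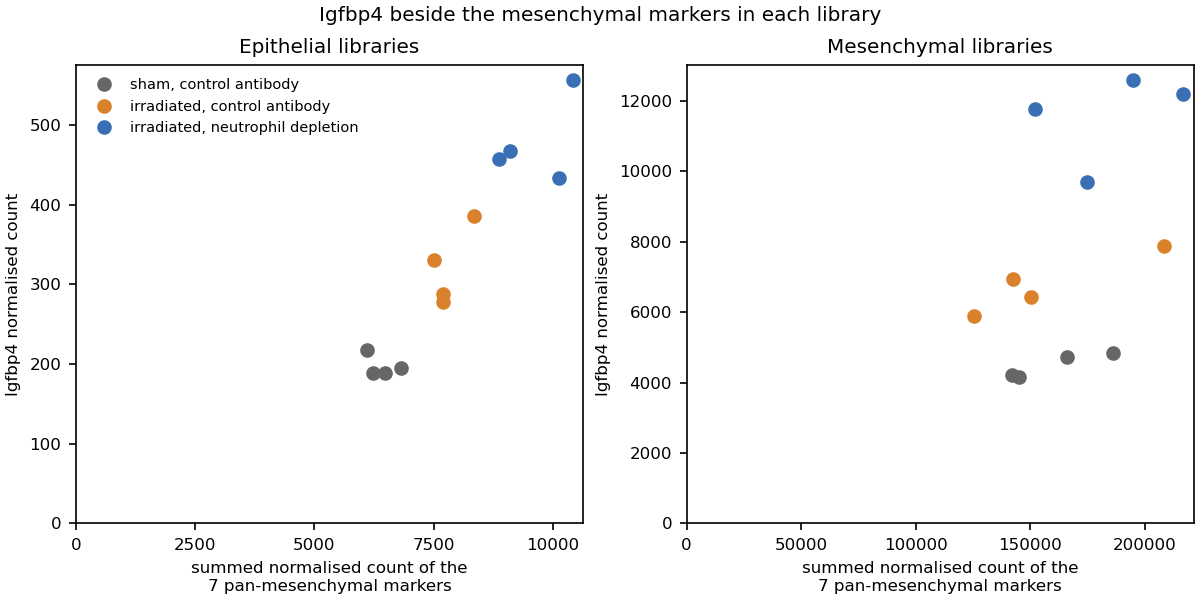
Igfbp4 normalised count (vertical axis) against the summed normalised count of 7 pan-mesenchymal markers (horizontal axis), 1 point per library, in epithelium (left) and mesenchyme (right). In epithelium both quantities are higher in irradiated and again in depleted libraries. In mesenchyme Igfbp4 separates the groups, while the marker sums of the 3 groups overlap.

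Igfbp3, the main carrier of the ligands in blood and a gene that can be induced by p53, went the other way. In mesenchyme its normalised counts were 4720.3, 4749, 4903 and 4989 in sham, 2602.5, 3455, 4376 and 3271 in irradiated, and 4336, 3417, 3674 and 3129.5 in depleted libraries. Every library of irradiated lungs, with or without depletion, was below every sham library, and the irradiated and depleted groups overlapped. Igfbp3 fell in irradiated against sham mesenchyme (-0.52 ± 0.130, limma adjusted p = 0.0401) and in depleted against sham mesenchyme (-0.42 ± 0.130, adjusted p = 0.0411). Depleted and irradiated mesenchyme differed by 0.10 with a 95% interval of -0.18 to 0.38 (adjusted p = 0.741).

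In epithelium Igfbp3 was measured at 258, 287, 279 and 262 in sham, 165, 188, 222.5 and 247 in irradiated, and 250.2, 170.3, 192 and 133 in depleted libraries. Again no library of irradiated lungs reached the lowest sham library. The difference was -0.41 ± 0.162 in irradiated against sham (adjusted p = 0.230) and Igfbp3 fell by 0.58 in depleted against sham (SE 0.162, adjusted p = 0.0345). With both irradiated groups pooled against sham, an added comparison chosen after seeing the data, Igfbp3 fell by 0.49 in epithelium (SE 0.140, adjusted p = 0.0424) and by 0.47 in mesenchyme (SE 0.112, adjusted p = 0.0143). That comparison called 2 of the 10 genes in each fraction, Igfbp3 and Igfbp4, and 8.61% of all epithelial and 13.2% of all mesenchymal genes. All libraries of irradiated lungs below all sham libraries in both tables was a pattern of 14 genes (0.0928% of those tested in both). Igfbp3 calls were near the threshold. The pooled call was lost in 10 of 22 alternatives in epithelium (adjusted p up to 0.122) and in 1 in mesenchyme, without sham replicate 3 (adjusted p = 0.0540). The others were lost in 8 of 23 alternatives for depleted against sham epithelium (adjusted p up to 0.0855), in 9 for irradiated against sham mesenchyme (up to 0.117) and in 11 for depleted against sham mesenchyme (up to 0.114).

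Against sham, the mean summed counts of 8 alveolar fibroblast markers were lower in both fractions, as Igfbp3 was. In epithelium 2 of 8 were called lower in depleted against sham and 0 in irradiated against sham, with sums between 34321.5 and 37297 in sham, between 29476 and 37132.5 in irradiated and between 29583 and 33120.3 in depleted libraries. In mesenchyme 5 of the 8 were called lower in depleted against sham and 0 in irradiated against sham. Over all genes 15.2% and 3.80% were called in those comparisons, and 11.3% and 3.14% in the epithelial ones. The summed normalised counts of the 8 markers were between 224167 and 314204 in sham, between 193519.7 and 251291 in irradiated and between 157954 and 198228 in depleted mesenchyme. From irradiated to depleted mesenchyme their mean sum fell from 219462 to 180702, while Igfbp3 differed by 0.10. The pan-mesenchymal sums given beside Igfbp4 were higher in epithelium of irradiated lungs and overlapped between groups in mesenchyme. The part of these cells in the Igfbp3 values was not tested.

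Igfbp7, a secreted protein of vessels and matrix, was called in 1 of the comparisons within a fraction, depleted against sham mesenchyme. Its mesenchymal counts were 4899.9, 4742, 4700.4 and 5232 in sham, 5700.2, 4853, 5074 and 4707 in irradiated, and 6104, 5599, 7197 and 5939.5 in depleted libraries. Every depleted library was above every sham library, whereas sham and irradiated overlapped. Igfbp7 rose in depleted against sham by 0.34 ± 0.0876 (1.26-fold, limma adjusted p = 0.0165), and this call was lost without sham replicate 3 (adjusted p = 0.0560). Against irradiated mesenchyme the difference was 0.29 ± 0.0876 (adjusted p = 0.0971). The summed count of 10 endothelial markers was between 1251.5 and 2834 in sham, between 2759 and 4637 in irradiated and between 1980.2 and 3648.5 in depleted mesenchyme, and its part in the Igfbp7 values was not tested. In epithelium Igfbp7 ran from 1031 to 1584 over all 12 libraries and passed no test. Igfbp7 shares 85 exon bases with Polr2b on the opposite strand. The strand setting of the authors' counting is not given, so Igfbp7 values may include reads of Polr2b.

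The remaining binding proteins passed no test at the main settings. Igfbp2, the most variable of them, had 17.2, 5.79, 6.06 and 9.15 normalised counts in sham mesenchyme, 45.4, 12.5, 18.3 and 12.2 in irradiated and 25.6, 31.5, 20.3 and 13.1 in depleted mesenchyme. The groups overlapped, and depleted against sham differed by 1.22 ± 0.425 (limma adjusted p = 0.0655). Of the alternatives 6 called that difference, among them library weights (adjusted p = 0.0234), the replicate block (adjusted p = 0.02655) and 2 groups alone (adjusted p = 0.0453). The sham mesenchymal values were near the filter value of 10. There Igfbp2 passed the filter only through libraries of irradiated lungs, so these calls are not independent of the filter. In epithelium Igfbp2 ran from 56.2 to 209.8 in sham libraries and from 116 to 183 in the other 8. Igfbp5, a binding protein of the extracellular matrix, was between 6635 and 9477 in sham, between 6273 and 10094.5 in irradiated and between 4635 and 7085 in depleted mesenchyme (depleted against sham -0.41 ± 0.182, adjusted p = 0.155, and 0.0486 with the replicate block). Igfbp6, which prefers Igf2, ran from 1423 to 1852 in sham and from 1123 to 1499 in depleted mesenchyme (-0.31 ± 0.136, adjusted p = 0.143). In epithelium Igfbp6 ran from 503 to 581.5 in sham and from 600.0 to 839 in depleted libraries (0.30 ± 0.124, adjusted p = 0.145). That difference was called with 2 groups alone (adjusted p = 0.0499) and without irradiated replicate 1 (adjusted p = 0.0333). Those epithelial groups did not overlap, while the mesenchymal ones did.

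The make-up of the binding protein mRNAs differed between groups in step with these values. Taken per kilobase of exon, Igfbp4 was 10.9% ± 0.914 of the sum of the 6 binding protein genes in sham mesenchyme, 16.4% ± 1.23 in irradiated and 23.7% ± 1.75 in depleted mesenchyme. Igfbp3 went from 16.6% ± 0.683 to 11.8% ± 2.80 and 10.5% ± 1.22. Igfbp7 was the largest share in each group, between 43.3% and 46.4% in mesenchyme and between 49.7% and 55.8% in epithelium. In epithelium the Igfbp4 share was 2.18% ± 0.259 in sham, 3.55% ± 0.563 in irradiated and 5.24% ± 0.574 in depleted libraries. The ratio of Igfbp4 to Igfbp3 normalised counts was 0.926 ± 0.0485 in sham, 2.07 ± 0.671 in irradiated and 3.20 ± 0.425 in depleted mesenchyme. In epithelium that ratio was 0.731 ± 0.07103, 1.62 ± 0.477 and 2.67 ± 0.604. These shares and ratios restate the values above and were not tested.

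**Figure D4:**
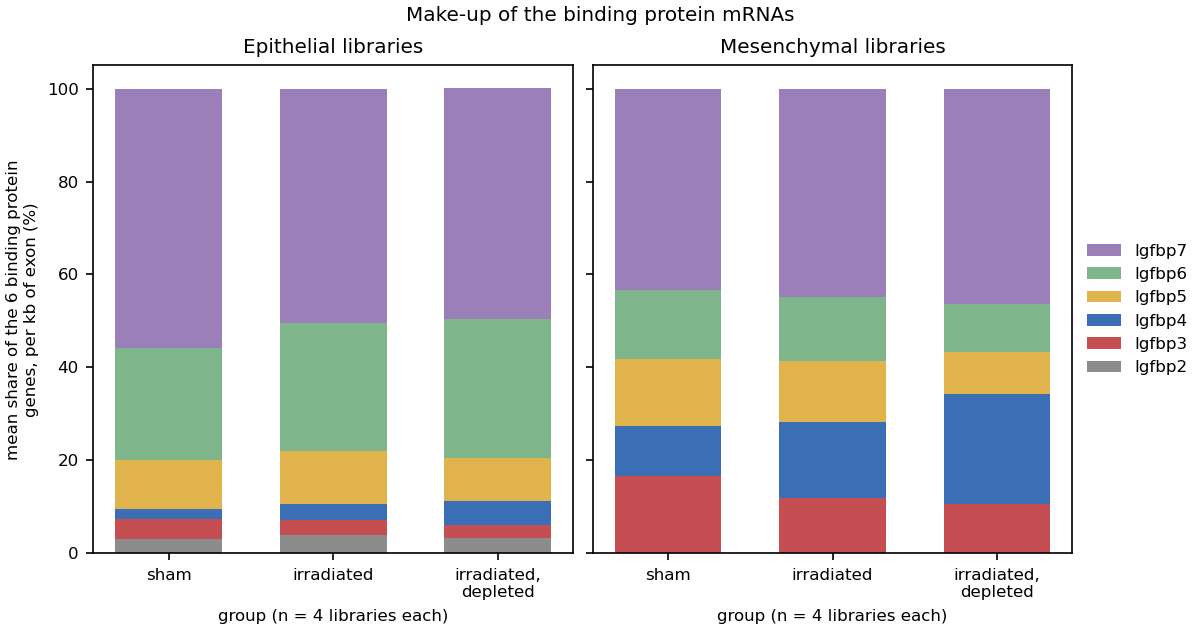
Mean share (%) of each of the 6 binding protein genes in their summed normalised count per kilobase of exon, by group (n = 4 libraries each), in epithelium (left) and mesenchyme (right). The Igfbp4 band widens from 10.9% to 16.4% to 23.7% in mesenchyme and from 2.18% to 3.55% to 5.24% in epithelium, while Igfbp7 is the widest band in every bar.

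Among the ligands, Igf1 was measured in mesenchyme at 1230.3, 1387, 1431.5 and 1232 in sham, 1271, 874, 1144 and 948 in irradiated, and 1358, 1359.5, 1825 and 1266 in depleted libraries. Irradiated libraries tended low, but the groups overlapped. The difference was -0.33 ± 0.1265 in irradiated against sham (limma adjusted p = 0.153) and 0.46 ± 0.1265 in depleted against irradiated (adjusted p = 0.0738). The latter passed under 4 of the alternatives, among them DESeq2 on the recovered reads (adjusted p = 0.0220) and leaving out irradiated replicate 1 (adjusted p = 0.0345). In epithelium Igf1 ran from 53.7 to 151 over all libraries with overlapping groups. Igf2, an imprinted gene that is high before birth, ran from 38.2 to 77.8 in epithelium and from 161 to 303 in mesenchyme and passed no test. Igf2 shares 3596 exon bases on the same strand with the predicted gene Gm49394, which was not analysed here, and 98 with the antisense gene Igf2os. The strand setting of the authors' counting is not given in the sources used here, so Igf2 values may include reads of these genes.

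The receptors passed no test at the main settings. Igf1r ran from 655 to 894 in epithelium and from 2112 to 2546 in mesenchyme, and its differences lay between -0.09 and 0.14 in the 6 comparisons within a fraction. Igf2r ran from 2554 to 3144 in epithelium and from 2835 to 4106 in mesenchyme, with differences between -0.03 and 0.20. Without sham replicate 1 Igf2r was called in depleted against sham epithelium (0.18, limma adjusted p = 0.0426). Over the 6 comparisons the lowest and highest ends of the 95% intervals were -0.24 and 0.32 for Igf1r. For Igf2r they were -0.23 and 0.39, so larger changes lay outside all of these intervals.

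Whether a response differed between the fractions was tested in 1 fit over all 24 libraries, which treats them as independent. For the irradiation response 0 of the 10 genes were called (0.629% of 15092 genes), and 0 had an unadjusted p under 0.05. For the depletion response 0 were called (0.596% of genes) and 2 had an unadjusted p under 0.05. These were Igfbp7, whose response was lower in epithelium by 0.29 (difference -0.29 ± 0.128, adjusted p = 0.374), and Igf2 (0.53 ± 0.248, adjusted p = 0.420). edgeR and DESeq2 on the recovered reads also called 0 of the 10 in both tests. For Igfbp4 the difference between fractions was 0.09 with a 95% interval of -0.21 to 0.40 for irradiation and -0.19 with an interval of -0.49 to 0.12 for depletion.

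The other genes of the pathway were taken from 3 lists. Of 19 accessory genes that carry, cut or regulate the IGF proteins, 15 were tested in epithelium and 13 in mesenchyme. Igfbp1 was at or near 0 in all libraries, with group means up to 0.766. In epithelium 2 of 15 rose in irradiated against sham and 0 fell, where 3.14% of all genes were called. They were the lysosomal protease Ctsd (0.39 ± 0.0661, limma adjusted p = 0.00258) and the secreted metalloprotease Adamts1 (0.97 ± 0.137, adjusted p = 0.00272). The median difference of the list was 0.39, against -0.01 over all genes. Adamts1 responded more in epithelium than in mesenchyme by 0.95 (adjusted p = 0.00952). In depleted against sham epithelium 3 of 15 rose, Pappa, Pappa2 (1.68 ± 0.471, adjusted p = 0.0279) and Ctsd (0.50 ± 0.0661, adjusted p = 9.78e-05), with a median of 0.44, where 11.3% of all genes were called. The Pappa2 call was lost in 4 of 22 alternatives, without sham replicate 3 or 4 or depleted replicate 3 or 4 (adjusted p up to 0.101, log2 difference down to 0.87). Pappa2 was low there, with a mean of 3.96 in sham and 14.2 in depleted libraries. It passed the filter only through libraries of irradiated lungs, so its call is not independent of the filter. In depleted against irradiated epithelium 0 of 15 were called and 3 had an unadjusted p under 0.05.

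Pappa, the protease that cuts Igfbp4, had 16.6, 30.8, 17.0 and 16.65 normalised counts in sham, 32.3, 35.5, 32.4 and 39.4 in irradiated and 34.8, 50.8, 70.0 and 71.8 in depleted epithelium. In mesenchyme it had 305, 462, 321 and 342 in sham, 473.5, 428, 488 and 338 in irradiated and 590.3, 551, 576 and 809 in depleted libraries. Depleted libraries were above all sham libraries in both fractions. Pappa rose in depleted against sham epithelium by 1.44 ± 0.246 (limma adjusted p = 0.00116) and in depleted against sham mesenchyme by 0.82 ± 0.156 (adjusted p = 0.00374). Its differences were 0.80 in irradiated against sham epithelium (adjusted p = 0.0910), 0.28 in irradiated against sham mesenchyme (adjusted p = 0.342), 0.64 in depleted against irradiated epithelium (adjusted p = 0.278) and 0.54 in depleted against irradiated mesenchyme (adjusted p = 0.0878). The pan-mesenchymal marker sums given beside Igfbp4 were also higher in depleted epithelium, and their part in the epithelial Pappa values was not tested.

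In mesenchyme 0 of 13 accessory genes were called in irradiated against sham, with 2 at an unadjusted p under 0.05. In depleted against irradiated mesenchyme 1 of 13 rose, where 2.69% of all genes were called. It was Igf2bp2, an RNA-binding protein that binds Igf2 mRNA (1.18 ± 0.175, limma adjusted p = 0.00163). Its mesenchymal means were 77.7 in sham, 105 in irradiated and 241 in depleted libraries. Against sham 3 of 13 rose in depleted mesenchyme: Igf2bp2 (1.58, adjusted p = 2.87e-05), the metalloprotease Adam12 (1.23 ± 0.310, adjusted p = 0.0168) and Pappa, where 15.2% of all genes were called. The Adam12 call was lost without sham replicate 1 or depleted replicate 1 (adjusted p up to 0.0559). The median of the list was 0.20 there, against -0.01 over all genes.

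Of 31 genes of receptor signalling, 29 were tested in each fraction. Irs1 and Irs2, the docking proteins that pass the receptor signal on, moved in opposite directions in depleted against sham mesenchyme. Irs2 had 2731, 2609.8, 2864 and 2531 normalised counts in sham, 2938, 3274, 3517 and 3589.5 in irradiated and 4753, 4012, 4105 and 4913 in depleted mesenchyme, with no overlap between groups. It rose in depleted against sham by 0.72 ± 0.0864 (limma adjusted p = 5.34e-05) and against irradiated by 0.42 ± 0.0864 (adjusted p = 0.0176), the latter lost without depleted replicate 1 or 4 (adjusted p up to 0.0739). Irs1 had 1189.7, 1160.1, 1400.2 and 1299.7 in sham, 974, 967, 1142 and 1138 in irradiated and 899, 922, 1035 and 802 in depleted mesenchyme. It fell in depleted against sham by 0.47 ± 0.0897 (adjusted p = 0.00260). In epithelium neither passed a test, with differences in depleted against sham of 0.18 for Irs2 (adjusted p = 0.0952) and -0.18 for Irs1 (adjusted p = 0.202). The plot of 4 pathway genes shows Pappa, Irs1, Irs2 and Igf2bp2 in each library.

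**Figure D5:**
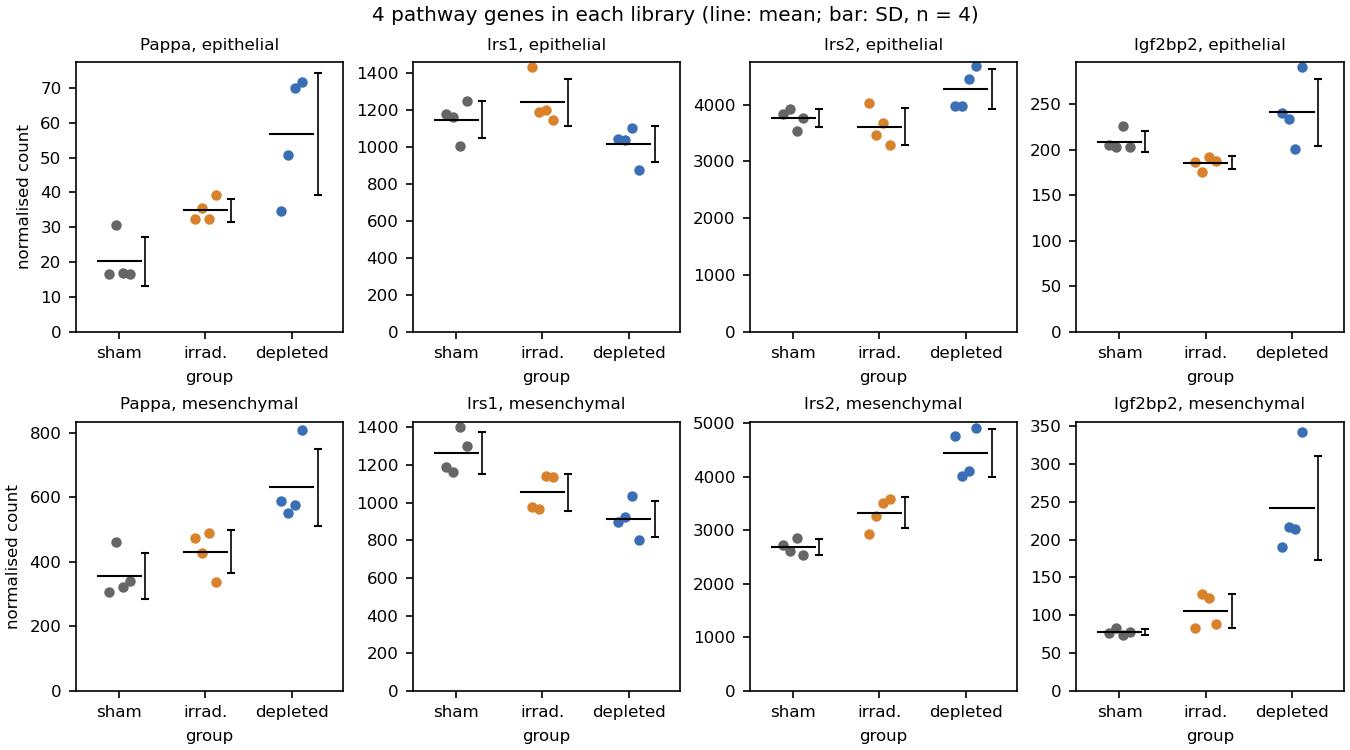
Normalised counts of Pappa, Irs1, Irs2 and Igf2bp2 in each library of epithelium (top) and mesenchyme (bottom), by group, with the mean (line) and SD (bar, n = 4). Every vertical axis starts at 0. In mesenchyme the Irs2 groups rise without overlap and Irs1 is lower in every depleted library than in every sham library.

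The insulin receptor gene Insr, whose product can pair with Igf1r, rose in depleted against sham epithelium by 0.16 ± 0.0496 (limma adjusted p = 0.0467), a call lost in 16 of 23 alternatives. Its other differences were 0.03 in irradiated against sham and 0.13 in depleted against irradiated epithelium, and -0.0079 (irradiated against sham), 0.21 (depleted against irradiated) and 0.20 (depleted against sham) in mesenchyme, none of them called. Of the 29 signalling genes 0 were called in irradiated against sham or depleted against irradiated epithelium (5 and 9 had an unadjusted p under 0.05). In depleted against sham epithelium 4 rose and 1 fell (5 of 29 called, beside 11.3% of all genes). Besides Insr, Shc1, an adaptor of receptor kinases, rose by 0.31 ± 0.0560, and Foxo1 and Foxo3, transcription factors that Akt keeps inactive, rose by 0.43 ± 0.0708 and 0.68 ± 0.177. Grb14, an adaptor that restrains the insulin receptor, fell by 0.57 (SE 0.121, adjusted p = 0.0105). In mesenchyme 2 of 29 rose in irradiated against sham, Grb14 (0.59, adjusted p = 0.0476) and the kinase subunit gene Pik3cb (0.75, adjusted p = 0.0382), beside 3.80% of all genes. Both were higher in the epithelial table, where Grb14 averaged 2195 and Pik3cb 529 in sham, against 59.4 and 49.7 in sham mesenchyme on that table's own scale. Epithelial markers were also higher in those mesenchymal libraries. The sums of 6 pan-epithelial markers averaged 179.9 in sham, 316 in irradiated and 334 in depleted mesenchyme, with 1 and 3 of 6 called higher against sham. The sums of 8 alveolar type 1 markers averaged 1224, 2074 and 2575 there, with 0 and 4 of 8 called higher. Beside these counts 3.80% and 15.2% of all mesenchymal genes were called. The part of epithelial cells in the mesenchymal Grb14 and Pik3cb values was not tested. In depleted against irradiated mesenchyme 1 of 29 rose, Irs2, beside 2.69% of all genes called. In depleted against sham mesenchyme 5 rose and 2 fell (7 of 29 called, beside 15.2% of all genes), the largest being Grb14 (0.76 ± 0.157), Irs2 and Foxo3 (0.65 ± 0.149). Grb14 averaged 2195 in sham and 1495 in depleted epithelium, and 59.4 in sham and 99.8 in depleted mesenchyme. Its difference between fractions was -0.77 ± 0.1915 for irradiation (adjusted p = 0.0638) and -0.57 ± 0.1915 for depletion (adjusted p = 0.228), and neither was called. The median of the list was 0.02 in depleted against sham epithelium and 0.04 in mesenchyme, against -0.01 over all genes in both.

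All 9 genes of the growth hormone axis, which drives Igf1 in liver, were tested in both fractions. In epithelium 3 of 9 rose in depleted against sham, beside 11.3% of all genes called: the prolactin receptor Prlr (1.83 ± 0.381, limma adjusted p = 0.00482) and the feedback inhibitors Socs2 (0.44 ± 0.0810, adjusted p = 0.00230) and Socs3 (0.63 ± 0.176, adjusted p = 0.0483). Prlr was low there, with 4.88, 11.7, 2.68 and 8.33 normalised counts in sham and 19.1, 22.9, 23.7 and 33.5 in depleted libraries. It passed the filter only through the depleted libraries, so its call is not independent of the filter. In irradiated against sham epithelium 0 of 9 were called, with 2 at an unadjusted p under 0.05. In mesenchyme 1 of 9, Stat5a, a transcription factor of the hormone receptor, rose in irradiated against sham (0.79 ± 0.184, limma adjusted p = 0.0376), beside 3.80% of all genes called. In depleted against sham mesenchyme 2 of 9, Stat5a and Socs3, rose (0.66 and 0.42), beside 15.2% of all genes. No gene of this list was called in depleted against irradiated mice of either fraction, with 2 in epithelium and 0 in mesenchyme at an unadjusted p under 0.05. The calls of Stat5a, Pik3cb, Socs3 in epithelium, Foxo3 in epithelium and Grb14 in irradiated mesenchyme were each lost in 7 to 13 of 23 alternatives.

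The genes whose values were most like those of a called member across the 12 libraries of a fraction were named by Pearson r of log2 values over 10493 epithelial and 10509 mesenchymal genes, as a description that includes the differences between groups. In epithelium these were Lcn2 (r = 0.961), Saa3 (0.951) and Slc39a14 (0.951) for Igfbp4, and Zfp334 (0.938) and Nynrin (0.908) for Igfbp3. In mesenchyme they were Cfb (0.983), Ifitm3 (0.971) and Gda (0.969) for Igfbp4, Mrpl4 (0.911), Bivm (0.903) and Hist4h4 (0.893) for Igfbp3, and Fkbp10 (0.953), Pabpc4 (0.933) and Lrp6 (0.929) for Igfbp7. The libraries share their groups, so genes that differ between groups in the same way have a high r.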

How the data were processed

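RNA of 24 libraries, 4 in each of 6 groups, was sequenced after ribosomal RNA depletion, per the labels' protocols. The authors deposited 1 table per fraction of normalised counts, a signal in which each library's gene counts share 1 divisor. Per the submitters' processing notes, the tools were cutadapt 1.5, STAR 2.2.2a, SAMtools 1.8, RSEM 1.3.0 and DESeq2, with the build GRCm38; their settings are not given in the sources used here. Whole reads were recovered from 100% of values within 0.001, and 2 of the 24 columns had steps too near 1 for that to be told from rounding. Genes with at least 10 in at least 4 of 12 libraries were tested on log2(value + 1) with limma 3.58.1 (trend, robust) in R 4.3.3, the 3 groups of a fraction in 1 fit. A fit over all 24 libraries compared fractions. The code was tested on simulated data. edgeR 4.0.16 and DESeq2 1.42.0 on the recovered reads were alternatives, beside other pseudocounts, filters, scalings, library weights, a replicate block, single libraries left out and 2 groups alone. All 36 pairs of libraries within a group differed by more than counting error.

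The members and lists were chosen with earlier results of these data known. Pathway genes were named when called (all where a list had at most 6, otherwise the 3 with the largest change), with Pappa, Irs1, Irs2 and Insr always named. The 3 genes most like a called member were named by Pearson r, except that 1 is not reported here.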

Additional observations from a re-analysis of the deposited data

Results flagged for a closer look

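In 60 groups of 4 libraries (10 genes in 6 groups), 4 held a library far from the other 3 by Dixon's criterion. Chance gives this in about 1 in 20 groups. Igf1 was 53.66 in epithelial sham replicate 1 against 100.9 to 109.3 in the others. Igf2 was 48.81 in epithelial sham replicate 2 against 66.35 to 69.66. Igf1r was 2239 in mesenchymal irradiated replicate 1 against 2522 to 2546. Igf1 was 1825 in mesenchymal depleted replicate 3 against 1266 to 1359.5.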

How the results depend on the processing

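With single libraries left out, the number of the 10 genes called ran from 0 to 1 in depleted against irradiated epithelium, 1 to 3 in depleted against sham epithelium, 1 to 2 in both irradiated groups against sham epithelium, 1 to 2 in irradiated against sham mesenchyme, 1 to 2 in depleted against irradiated mesenchyme, 1 to 4 in depleted against sham mesenchyme and 1 to 3 in both irradiated groups against sham mesenchyme. With 2 groups alone 0 were called in depleted against irradiated epithelium. Without the filter 1 was called in both irradiated groups against sham epithelium and 1 in irradiated against sham mesenchyme. In depleted against irradiated mesenchyme library weights called 2 and DESeq2 called 3. The correlation of deviations between libraries of the same replicate number ran from -0.11 to 0.15 (median 0.0385) in epithelium. In mesenchyme it ran from -0.05 to 0.17 (median 0.038). Between libraries of other numbers it ran from -0.14 to 0.17 (median -0.0037) in epithelium and from -0.18 to 0.14 (median -0.0078) in mesenchyme. These ranges overlap, so whether the numbers pair libraries across groups cannot be told. With the replicate number as a block, 1 was called in depleted against sham epithelium, 1 in both irradiated groups against sham epithelium and 2 in depleted against irradiated mesenchyme.

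With the length of the longest transcript, the Igfbp4 share was 5.84% in depleted epithelium, 17.7% in irradiated and 25.5% in depleted mesenchyme. In all, 16 differences changed sign under some setting, 0 of them called. These were Igfbp7 in depleted against irradiated epithelium (0.025 with library weights), Igfbp5 in the depletion response between fractions (0.018 with upper quartile scaling, 0.013 with edgeR, 0.023 with DESeq2) and Insr in irradiated against sham mesenchyme (0.0037 with DESeq2), and with single libraries left out the following log2 ranges. In irradiated against sham epithelium Igf1 ran from -0.082 to 0.27, Igf2 from -0.27 to 0.033 and Igfbp5 from -0.040 to 0.28. In depleted against irradiated epithelium Igf1 ran from -0.091 to 0.27 and Igfbp7 from -0.059 to 0.079. In depleted against sham epithelium Igf1 ran from -0.0027 to 0.43, Igf2 from -0.048 to 0.15 and Igfbp2 from -0.11 to 0.52. In mesenchyme Igfbp7 ran from -0.0040 to 0.088 and Insr from -0.066 to 0.046 in irradiated against sham. Igf2r ran from -0.13 to 0.025, Igfbp2 from -0.025 to 0.58 and Igfbp3 from -0.023 to 0.23 in depleted against irradiated, and Igf1r from -0.069 to 0.0095 in depleted against sham. Between fractions Igfbp3 ran from -0.015 to 0.23 for irradiation and Igfbp5 from -0.16 to 0.16 for depletion. The cause of these changes was not tested.

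Over all genes, calls in irradiated against sham were 522 in epithelium (816 with DESeq2, 964 with library weights, 214 to 653 with single libraries left out) and 631 in mesenchyme (1055 with DESeq2, 1048 with the replicate block, 184 to 1073). Calls in depleted against irradiated were 79 in epithelium (32 with 2 groups alone, 288 with DESeq2, 52 at a mean of at least 50, 36 to 199) and 448 in mesenchyme (291 with 2 groups alone, 792 with DESeq2, 182 to 806). Those against sham in depleted mice were 1876 in epithelium (1187 to 1934) and 2528 in mesenchyme (1571 to 2732). Between fractions 95 genes were called for irradiation (434 with DESeq2, 153 with edgeR, 199 with library weights, 261 with the block, 48 to 334 with single libraries left out, lowest without epithelial irradiated replicate 2 and highest without mesenchymal sham replicate 2) and 90 for depletion (160 with DESeq2, 59 without the filter, 58 with the block, 43 without mesenchymal depleted replicate 4 and 152 without mesenchymal depleted replicate 3). With 4 libraries a group, a member not called may still differ by an amount within its interval.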

Other observations

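The order of the members per kilobase of exon differed between groups of a fraction. In mesenchyme Igfbp4 stood 5th of the 10 genes in sham (1016), 2nd in irradiated (1534.5, overlapping Igfbp6) and 2nd in depleted libraries (2617, overlapping neither neighbour). Among 16581 genes ranked per kilobase Igfbp4 stood at 275 in sham, 165 in irradiated and 90 in depleted mesenchyme, and at 7524, 5393 and 3754 in epithelium. Igfbp3 went from 2nd in sham mesenchyme (1546.5) to 5th in irradiated (1095, overlapping Igfbp5) and 3rd in depleted mesenchyme (1163, overlapping Igfbp6). The sum of the 6 binding protein genes per kilobase averaged 9351 in sham, 9383 in irradiated and 11061 in depleted mesenchyme, and 2062.5, 2048 and 2069.6 in epithelium. Levels per kilobase depend on the length used. With the longest transcript in place of merged exons, 32 group means of the members moved by at least their SD and 28 did not. The order under that length is not given here, and places of overlapping genes may change with it. These orders restate the measured levels and were not tested.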
